A study of Laccaria bicolor with 18 samples.

Results

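Gene models 323571, 243825 and 306030 of the ectomycorrhizal basidiomycete *Laccaria bicolor* carry the label EXPN (expansin-like) in the study's annotation tables, and their transcripts were followed here in caps and stipes of ageing basidiocarps. Among 23130 gene models counted, 6 carried that label in the tables at hand. The 3 described here were selected on their level in these same libraries, as the 3 with the highest mean. Mean RPKM (read counts scaled by transcript length and by library depth) over all libraries was 1502 for 243825, 954.1 for 306030 and 56.5 for 323571, the lowest of them. The highest of those left out, 331387, had a mean of 9.29 RPKM. Because the members were chosen by level, their mean levels are a description and were not tested. Gene models 243825 and 306030 were above the other 3 EXPN gene models in every library, but 323571 owes its place to the older caps. In early caps it had a mean of 4.42 RPKM against 12.6 RPKM for 331387, and in late caps 253.9 RPKM against 8.66 RPKM. Its rise in caps and its excess over stipes are therefore not independent of its selection. The p-values and ranks given for them describe the fit and support nothing beyond it. This holds also where the change with age is compared between the tissues. All 6 gene models are also annotated as small secreted proteins. Gene model 306030 carries the InterPro descriptions rare lipoprotein A and Barwin-related endoglucanase, whereas 243825 and 323571 are paired in the tables with *Coprinopsis* genes holding an RlpA-like beta-barrel domain.

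Expansins were first known from plants, where they loosen the cell wall without cutting its polymers, by acting where cellulose meets other polysaccharides. One of their domains, the RlpA-like beta-barrel, is shared with some endoglucanases and with barwin, a plant defence protein. Fungi have related secreted proteins, among them the loosenins and the cerato-platanins, and their own walls are built of chitin and glucans. A mushroom stipe elongates and a cap expands largely by enlargement of existing hyphae, which requires that the wall yields while it is being built.

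All basidiocarps were of strain S238N and were harvested in a nursery experiment in which Douglas fir seedlings had been inoculated with the fungus. Early, medium and late basidiocarps were each separated into cap and stipe, which gave 6 groups with 3 libraries per group, 18 in all. The stages were named by age class without days, the material was not sterile, and the labels call the replicates biological without saying whether each came from a separate basidiocarp. If they did not, the p-values measure only the spread between these samples.

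Depth ranged from 38976106 to 90888294 counted reads. Medium stipes 1 and 2 differed by a biological coefficient of variation of 4.16% and late caps 2 and 3 by 4.05%, against 9.30% to 39.3% for the other pairs of replicates. Both close pairs still differed by more than sampling noise (chi-square per degree of freedom 8.16 and 14.1), which does not show that they came from separate basidiocarps. Each library was kept as a replicate, and the members called were the same in number when the close libraries were summed. Medium cap 3 and medium stipe 3 stood apart from their groups, at 32.7% to 39.3% from the other libraries. The check of tissue labels by markers gave no value. Of 10 meiosis genes looked up by name for the spore-bearing cap, 1 was in the reference gene table and 0 were matched to a gene model counted.

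Gene model 323571, the lowest of the 3, was a transcript of ageing caps. Its CPM (counts scaled by library depth and by edgeR's TMM factors) was 2.56, 2.75 and 2.60 in the early caps, 68.0, 36.0 and 11.6 in the medium caps and 172.1, 177.1 and 160.4 in the late caps. The 3 stages did not overlap, and the medium caps were the only ones spread widely, by a coefficient of variation of 73.5% against 3.8% and 5.1%. These levels rest on 117 to 165 reads in early caps and 8206 to 14996 reads in late caps.

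Late caps were 64.4-fold above early caps, a log2 fold change of 6.01 ± 0.53 (SE from the fit of all 18 libraries, n = 3 per group) with an adjusted p of 9.61e-07 by edgeR's quasi-likelihood test. That was the 12th highest change among the 16485 gene models tested. The rise was in place by the medium stage, at 14.6-fold over early caps (log2 3.87 ± 0.49, edgeR adjusted p = 4.83e-04), and went on from medium to late caps by 4.41-fold (log2 2.14 ± 0.44, edgeR adjusted p = 0.00171). Without medium cap 1 these log2 values were 3.15 and 2.89, both still called. A gene model was called here when the change exceeded 1 in log2 size with a Benjamini-Hochberg adjusted p under 0.05 over all gene models tested. In bulk tissue, a change in the transcripts per cell and a change in the share of cells that make them cannot be told apart.

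In stipes the same gene model stayed low. It had 2.98, 2.66 and 2.54 CPM in early stipes, 5.50, 4.70 and 7.30 CPM in medium stipes, and 11.8, 8.48 and 4.07 CPM in late stipes. Early stipes lay below all older stipes, while medium and late stipes overlapped. Late stipes were 2.97-fold above early stipes (log2 1.57 ± 0.45, edgeR adjusted p = 0.0109), a call that was lost without late stipe 1 (log2 1.20, edgeR adjusted p = 0.0592). Medium against early stipes (log2 1.10, edgeR adjusted p = 0.169) and late against medium stipes (log2 0.47, edgeR adjusted p = 0.425) were not called.

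Between tissues, 323571 started level and then parted. Early caps and early stipes overlapped (log2 -0.05 ± 0.45, edgeR adjusted p = 0.964). Medium caps were 6.61-fold above medium stipes, with every cap above every stipe (log2 2.72 ± 0.46, edgeR adjusted p = 9.43e-04). Late caps were 21.0-fold above late stipes (log2 4.39 ± 0.49, edgeR adjusted p = 4.76e-06), again without overlap. Medium cap 3, at 11.6 CPM, was the cap nearest to the stipes, and without it the medium difference was 3.16 on the log2 scale. Without medium cap 1, the highest of its group, the difference was 2.00 and was still called.

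Gene model 243825, the highest of the 3 per length, was abundant in every library and rose late in caps. Its CPM was 460.3, 389.3 and 396.7 in early caps, 553.7, 421.4 and 635.1 in medium caps, and 1855, 1720 and 1680 in late caps. Early and medium caps overlapped, and every late cap lay above all of them. Late caps were 4.22-fold above early caps (log2 2.08 ± 0.30, edgeR adjusted p = 8.94e-05) and 3.26-fold above medium caps (log2 1.71 ± 0.30, edgeR adjusted p = 4.69e-04), whereas the medium against early change was not called (log2 0.37, edgeR adjusted p = 0.481).

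In stipes, 243825 was at 539.6, 569.4 and 323.3 CPM in the early stage, 701.5, 692.0 and 338.3 CPM in the medium stage, and 798.7, 787.9 and 1164 CPM in the late stage. Replicate 3 was the low library of both younger stages and the high library of the late stage. The late against early difference had an edgeR adjusted p of 0.0160 but fell short of the fold threshold (log2 0.94 ± 0.29), and it passed the threshold when any of early stipe 1, early stipe 2, late stipe 1 or late stipe 2 was left out (log2 1.03 to 1.09). Late against medium stipes (log2 0.67, edgeR adjusted p = 0.0819) and medium against early stipes (log2 0.27, edgeR adjusted p = 0.642) were not called.

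Late caps were 1.91-fold above late stipes in 243825 and did not overlap with them. This difference too missed the fold threshold, with a log2 value of 0.93 ± 0.29 and an edgeR adjusted p of 0.0143. Without late stipe 3 it became 1.14 and was called. At the medium stage (log2 -0.11, edgeR adjusted p = 0.809) and the early stage (log2 -0.20, edgeR adjusted p = 0.713) cap and stipe overlapped.

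Gene model 306030, annotated as Barwin-related, was the member whose early and medium stipes lay above the caps of the same stage. It had 505.1, 514.5 and 488.0 CPM in early caps, 681.6, 601.9 and 543.4 CPM in medium caps, and 1671, 1403 and 1377 CPM in late caps. The 3 early caps were close together, with a coefficient of variation of 2.7%, and each stage lay above the one before. Late caps were 2.95-fold above early caps (log2 1.56 ± 0.29, edgeR adjusted p = 6.43e-04) and 2.44-fold above medium caps (log2 1.28 ± 0.28, edgeR adjusted p = 0.00262), while medium against early caps was not called (log2 0.28, edgeR adjusted p = 0.598).

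The stipes had 1001, 1091 and 731.0 CPM of 306030 in the early stage, 1673, 1558 and 806.9 CPM in the medium stage, and 1938, 1478 and 2697 CPM in the late stage. Late stipes were 2.17-fold above early stipes without overlap (log2 1.11 ± 0.28, edgeR adjusted p = 0.00501), but neighbouring stages overlapped and were not called (log2 0.60 and 0.52, edgeR adjusted p = 0.107 and 0.315). The late against early call was lost without early stipe 3 (log2 0.96) or without late stipe 3 (log2 0.87).

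Every early stipe and every medium stipe had more 306030 than every cap of its stage. In medium caps the level was 0.452 of that in medium stipes (log2 -1.14 ± 0.28, edgeR adjusted p = 0.00799), a call lost without medium stipe 1 (log2 -0.96). In early caps it was 0.534 of that in early stipes, which was not called (log2 -0.91 ± 0.28, edgeR adjusted p = 0.0533) unless early stipe 3 was left out (log2 -1.06, edgeR adjusted p = 0.0466). When the fit held only the medium libraries, neither 323571 (edgeR adjusted p = 0.0572) nor 306030 (edgeR adjusted p = 0.103) was called at that stage. Late caps and late stipes overlapped (log2 -0.46, edgeR adjusted p = 0.189).

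**Figure D1:**
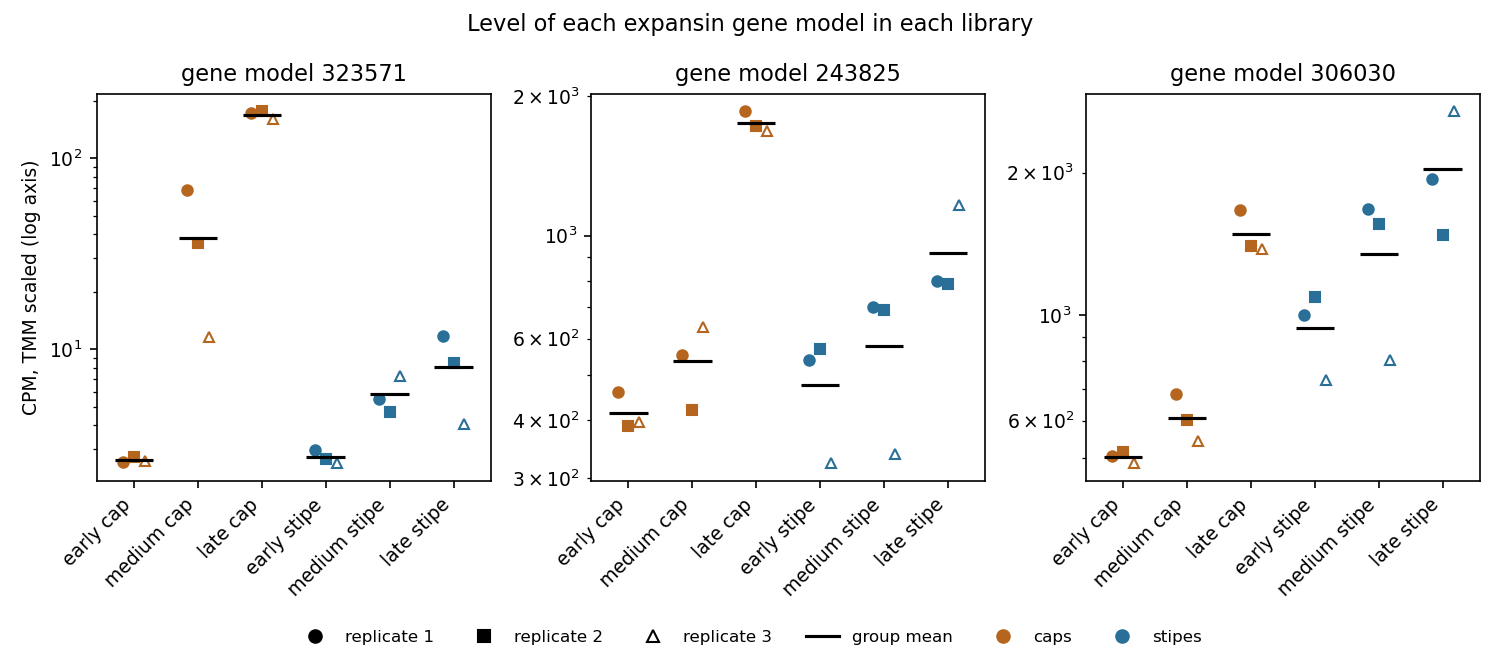
Level of each expansin gene model in CPM, on a log axis with its own range per panel, in the 6 groups. Each point is a library, its shape gives the replicate, caps are brown and stipes blue, and the bar is the group mean. Gene model 323571 rises from 2.64 to 169.9 CPM in caps, 243825 is highest in late caps at 1752 CPM, and 306030 is highest in late stipes at 2038 CPM.

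Ordered by mean CPM, 323571 fell from late caps (169.9 ± 8.58, SD, n = 3) to medium caps (38.5 ± 28.3), late stipes (8.10 ± 3.85), medium stipes (5.83 ± 1.33), early stipes (2.73 ± 0.23) and early caps (2.64 ± 0.10). Medium caps overlapped with late stipes by a single late stipe library, late stipes with medium stipes, and early stipes with early caps. For 243825 the order was late caps (1752 ± 92.0), late stipes (917.0 ± 214.3), medium stipes (577.3 ± 207.0), medium caps (536.7 ± 107.9), early stipes (477.4 ± 134.3) and early caps (415.4 ± 39.0), and the last 4 groups each overlapped with their neighbours. For 306030 the order was late stipes (2038 ± 615.9), late caps (1484 ± 162.3), medium stipes (1346 ± 470.3), early stipes (941.0 ± 187.4), medium caps (609.0 ± 69.3) and early caps (502.5 ± 13.4), and the first 4 overlapped with their neighbours.

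Counts over the members are a description, since the members were chosen on these libraries, and nothing was read from them. All 3 rose from early to late caps, where 9.27% of all gene models tested were called higher, and all 3 rose from medium to late caps, where the share was 9.17%. From medium over early caps 1 rose, against 1.08% of all gene models. In late over early stipes 2 rose, against 7.63%. In late caps over late stipes 1 was higher, against 14.8%. In medium caps 1 was higher and 1 lower than in medium stipes, against 6.47% and 5.05%.

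No member was called in 3 of the comparisons. For early caps against early stipes edgeR called 0, with 1 at an unadjusted p under 0.05 and 0 by DESeq2, where 5.16% of all gene models were called. For late against medium stipes it called 0, with 2 at an unadjusted p under 0.05 and 0 by DESeq2 (15.6% of all). For medium against early stipes it called 0, with 1 at an unadjusted p under 0.05 and 0 by DESeq2 (2.48% of all). Groups that do not overlap were common among all gene models, so the members' separation is given beside that share. In late caps against late stipes 2 members did not overlap (68.5% of all gene models), in medium caps against medium stipes 2 (34.0%) and in early caps against early stipes 1 (33.8%). Within caps the counts were 3 for late against early (64.2%), 3 for late against medium (52.3%) and 2 for medium against early (19.6%). Within stipes they were 3 for late against early (53.6%), 1 for late against medium (46.6%) and 1 for medium against early (22.3%).

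The interaction of tissue and stage tested whether the change with age differed between caps and stipes. For 323571 the late against early change in caps exceeded that in stipes by 4.44 ± 0.65 on the log2 scale (edgeR adjusted p = 3.46e-04), where 9.84% of all gene models were called in this direction. For 243825 the same difference was 1.13 ± 0.41 (edgeR adjusted p = 0.0576) and for 306030 it was 0.45 ± 0.40 (edgeR adjusted p = 0.439), and neither was called. The value of 243825 lay close to the threshold, since it was called by DESeq2 (log2 1.16, adjusted p = 0.0185, with 15.9% of all gene models called) and without early stipe 3 (log2 1.35), late stipe 3 (log2 1.36), medium cap 3 (log2 1.13) or medium stipe 3 (log2 1.13).

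Over the step from medium to late, the cap change of 323571 exceeded the stipe change by 1.67 ± 0.61 (edgeR adjusted p = 0.0901), that of 243825 by 1.04 ± 0.41 (edgeR adjusted p = 0.112) and that of 306030 by 0.69 ± 0.40 (edgeR adjusted p = 0.280). EdgeR called 0 of the members here, with 2 at an unadjusted p under 0.05 and 1 by DESeq2, against 7.29% and 8.92% of all gene models. Leaving out medium cap 1 gave 2.39 for 323571 and leaving out medium stipe 3 gave 1.31 for 243825, both called.

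Over the step from early to medium, the difference was 2.77 ± 0.64 for 323571 (edgeR adjusted p = 0.161, with 0.0182% of all gene models called), 0.10 ± 0.41 for 243825 and -0.24 ± 0.40 for 306030. EdgeR called 0 of the members, with 1 at an unadjusted p under 0.05 and 1 by DESeq2. That 1 was 323571 (log2 2.78, DESeq2 adjusted p = 0.00388, with 0.637% of all gene models called), which edgeR also called without medium cap 3 (log2 3.20, adjusted p = 0.00250).

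**Figure D2:**
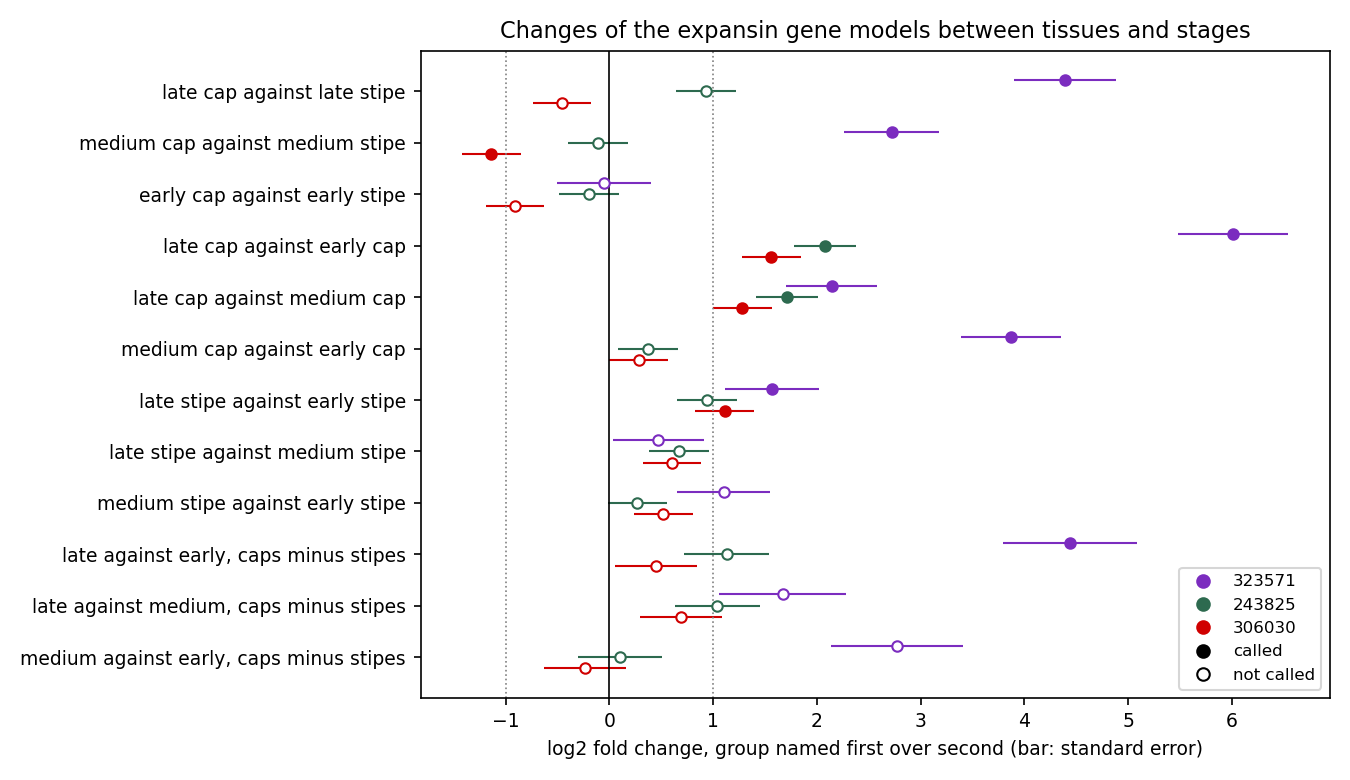
Log2 fold change of the 3 expansin gene models in the 9 comparisons and the 3 interactions, with bars of 1 standard error from edgeR's fit. Filled points were called, dotted lines mark a log2 fold change of 1 in size, and a positive value means higher in the group named first. Gene model 323571 reaches 6.01 in late against early caps, and 306030 has negative values in all 3 cap against stipe comparisons, from -0.46 to -1.14.

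Per length, the expansin transcripts of a library were almost entirely those of 243825 and 306030. The RPKM summed over all 6 EXPN gene models was 1366 ± 115.0 (SD, n = 3) in early caps, 1578 ± 227.9 in medium caps and 4808 ± 250.4 in late caps. In stipes it was 1746 ± 411.1, 2214 ± 763.5 and 3467 ± 534.1 at the same stages. Late caps had the highest sums, from 4602 to 5087 RPKM, and the late stipe nearest to them had 4064 RPKM.

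The make-up of this sum differed between tissues in every library. In caps the RPKM of 243825 was 1.63 to 2.85 times that of 306030, whereas in stipes it was 0.958 to 1.25 times, so that the 9 caps and 9 stipes did not overlap. The mean ratio was 1.92 ± 0.18 in early caps, 2.08 ± 0.57 in medium caps and 2.76 ± 0.15 in late caps, against 1.17 ± 0.12, 0.994 ± 0.034 and 1.07 ± 0.15 in stipes. The members were chosen by level and the ratio was noticed in these libraries, so it was not tested. How often other pairs of gene models part caps from stipes in this way was not counted.

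The share of 323571 in the summed RPKM was 0.293% to 0.349% in early caps, 5.91%, 3.95% and 1.03% in medium caps 1, 2 and 3, and 4.98% to 5.64% in late caps. In stipes it did not exceed 0.826%. By RPKM rank among all 23130 gene models, 323571 moved from between 11768 and 12087 in early caps to between 457 and 510 in late caps. Gene model 243825 ranked between 29 and 161 and 306030 between 48 and 291 in all 18 libraries.

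**Figure D3:**
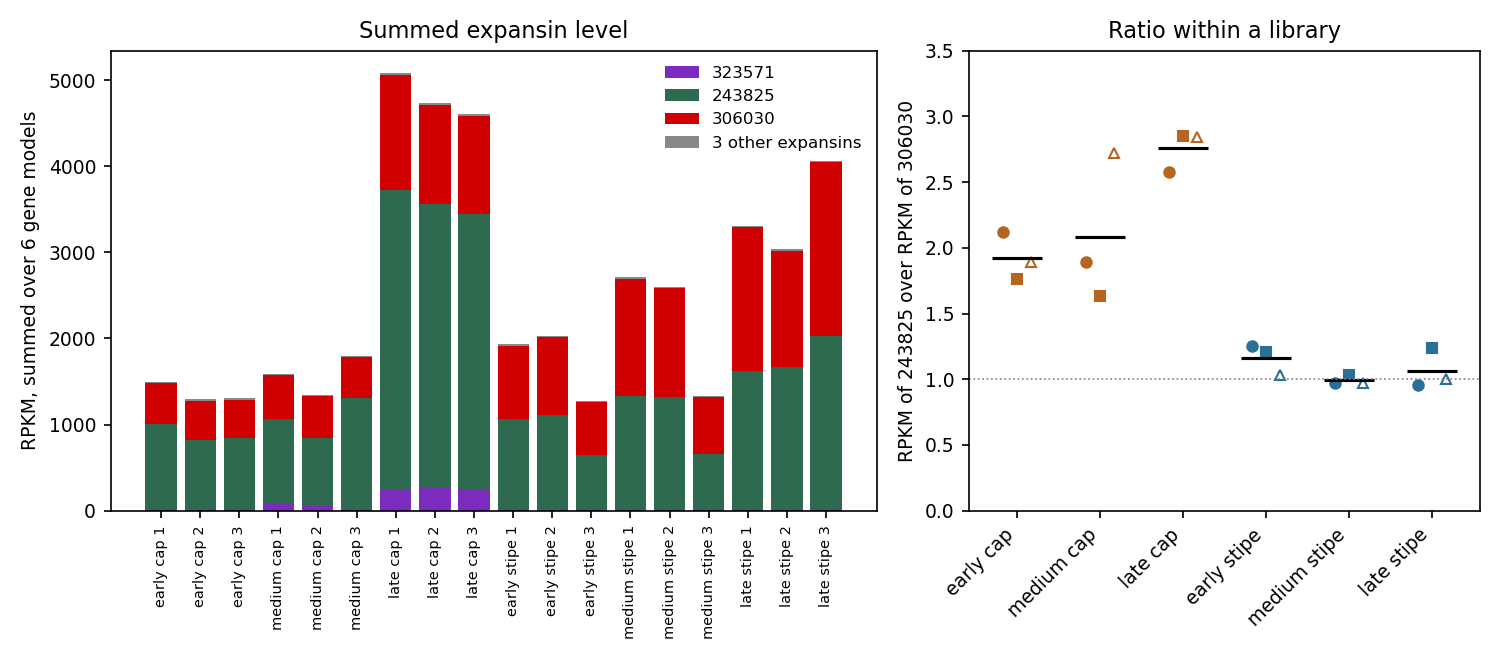
Left, RPKM summed over the 6 EXPN gene models in each library, stacked by gene model. Right, RPKM of 243825 divided by that of 306030 in each library, with the group mean as a bar, caps in brown and stipes in blue. Late caps have the highest sums, 4602 to 5087 RPKM, and the ratio is 1.63 to 2.85 in caps and 0.958 to 1.25 in stipes.

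Across libraries, the levels of 243825 and 306030 moved together within a tissue. Pearson's r of log2(CPM + 1) was 0.972 over the 9 caps and 0.966 over the 9 stipes, but 0.717 over all 18 libraries. Gene models 323571 and 306030 had an r of 0.896 over the caps, 0.386 over the stipes and 0.236 over all. These points share groups and libraries, so the coefficients describe the data and carry no test.

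The other 3 EXPN gene models were weakly transcribed, from 0.371 to 9.75 CPM. Of them, 313260 resembled 323571 in its late rise in caps, with 9.75, 9.55 and 8.46 CPM in late caps against at most 3.47 CPM in any other library. Late caps were called above late stipes (log2 1.87 ± 0.19, edgeR adjusted p = 1.63e-06), early caps (log2 1.82 ± 0.18, edgeR adjusted p = 3.11e-06) and medium caps (log2 1.58 ± 0.18, edgeR adjusted p = 2.20e-05). In contrast to 323571, its medium and early caps overlapped (log2 0.23, edgeR adjusted p = 0.481).

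Gene model 331389 was highest in late stipes, with 1.27, 1.79 and 1.59 CPM, and was called in late over medium stipes (log2 1.25 ± 0.21, edgeR adjusted p = 3.19e-04). These values rest on 59 to 86 reads. Gene model 331387 had group means of 2.76 to 4.14 CPM and was called in 0 of the 9 comparisons by edgeR. The unadjusted p of 331387 was lowest in early caps against early stipes, at 0.0727 (log2 0.56). Gene models 331387 and 331389 imply the same transcript length of 357 bases, and whether they share reads was not tested.

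Among proteins with the related fold, 172945 is annotated through its *Coprinopsis* counterparts as a cerato-platanin, a group of small secreted fungal proteins. It was as abundant per length as 243825, with a mean of 1496 RPKM, but its stipes fell at the late stage. It had 660.2 CPM at most in early stipes and 30.2 to 93.8 CPM in late stipes, against 1776 to 2300.5 CPM in late caps. Late stipes were below early stipes (log2 -3.17 ± 0.49, edgeR adjusted p = 1.15e-04) and below medium stipes (log2 -2.67 ± 0.48, edgeR adjusted p = 5.78e-04), and late caps were 38.6-fold above late stipes (log2 5.27 ± 0.54, edgeR adjusted p = 2.21e-06). Without late stipe 1, the highest late stipe, these log2 values were larger in size, at -3.81, -3.31 and 5.91. The smallest sizes with a library left out were -2.86, -2.35 and 4.97, and all stayed called. Its caps did not pass the test between early and late (log2 0.74, edgeR adjusted p = 0.217). Early and medium stipes overlapped (log2 -0.50, edgeR adjusted p = 0.575). Medium caps were already 5.83-fold above medium stipes (log2 2.54 ± 0.48, edgeR adjusted p = 0.00172). That call was lost in the fit of the medium libraries alone (edgeR adjusted p = 0.0569). Early caps lay above early stipes without overlap but were not called (log2 1.36, edgeR adjusted p = 0.0704).

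Gene model 292422 is paired in the tables with a *Coprinopsis* gene of the RlpA-like domain, though the same row lists no valid protein hit, so its annotation is uncertain. It had 120.1 to 129.4 CPM in late caps and 27.8 to 40.7 CPM in late stipes (log2 1.77 ± 0.45, edgeR adjusted p = 0.00396). It was also called in late over early caps (log2 1.46, edgeR adjusted p = 0.0178) and late over medium caps (log2 1.35, edgeR adjusted p = 0.0248), but both calls were weak. The first was lost without early cap 1 (edgeR adjusted p = 0.0656) or early cap 2 (edgeR adjusted p = 0.0568). The second was lost without medium cap 2, medium cap 3, late cap 1 or late cap 2 (edgeR adjusted p = 0.0514 to 0.0757) and in the fit of those groups alone (edgeR adjusted p = 0.0550), and it ran from 0.97 without medium cap 3 to 2.04 without medium cap 1.

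**Figure D4:**
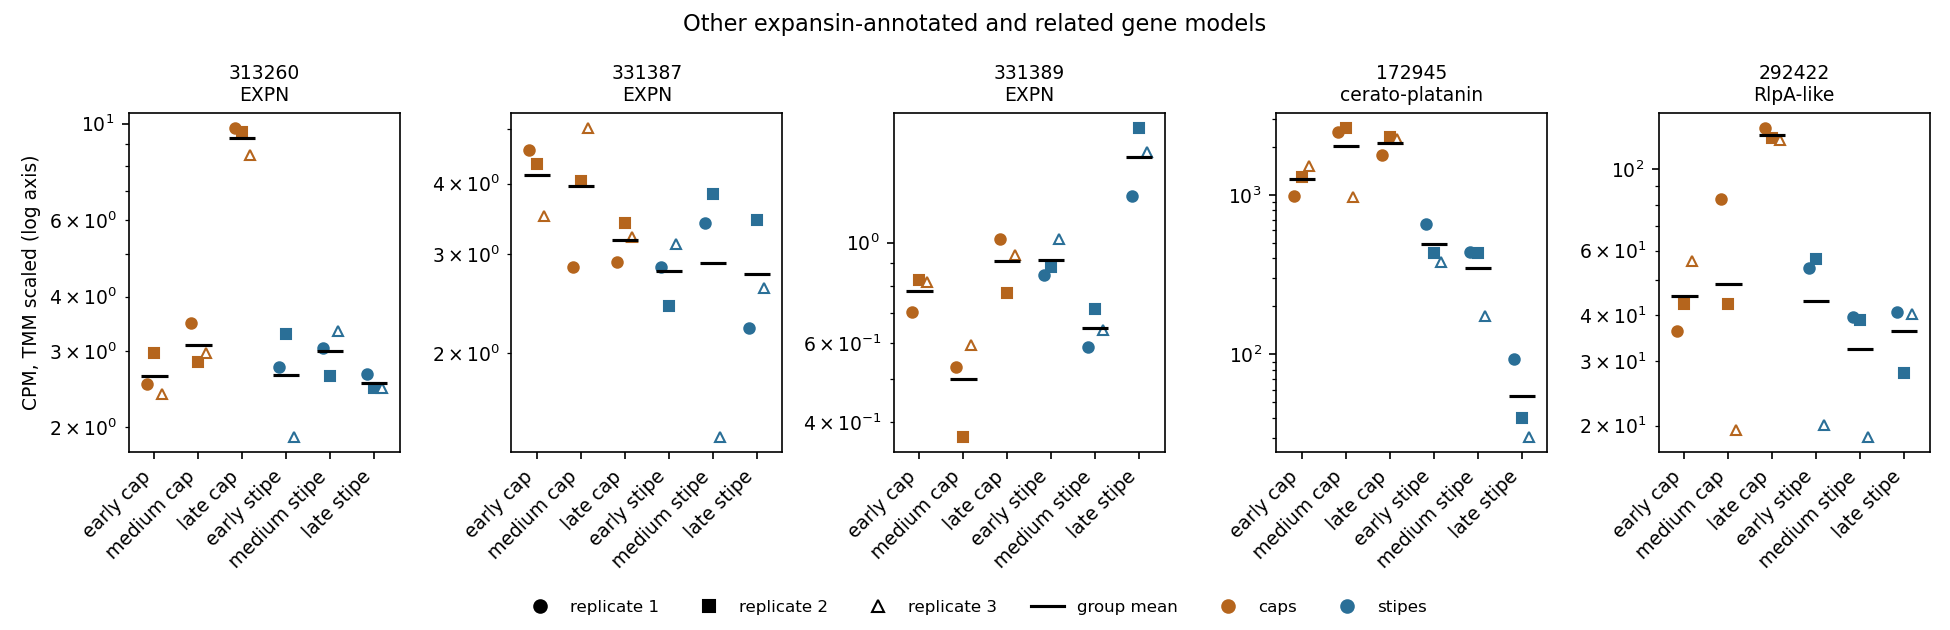
CPM, on a log axis with its own range per panel, of the 3 other EXPN gene models and of 2 gene models with a related domain in the 6 groups. Points are libraries, shapes are replicates, bars are group means, caps are brown and stipes blue. Gene model 313260 is highest in late caps at 9.25 CPM, and the cerato-platanin 172945 falls to 54.6 CPM in late stipes while late caps are at 2106 CPM.

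The rest of the wall machinery was described by 2 lists made from family annotations. The study selected parts of these tables on the same libraries, so the counts are not independent evidence of a direction. Of 50 gene models in families that build or remodel the fungal wall (among them GH16 and GH128 glucanases, GH18 chitinases, CE4 chitin deacetylases and GT2 and GT48 synthases), 14 rose and 3 fell from early to late caps, where 9.27% of all gene models tested rose and 6.13% fell. The median log2 change of the list was 0.39 against -0.05 over all gene models tested. From early to late stipes 12 rose and 14 fell (7.63% and 11.7% of all, median 0.07 against -0.01). In late caps over late stipes 16 were higher and 8 lower (14.8% and 9.55% of all, median 0.12 against -0.01).

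The 2 wall gene models with the highest RPKM did not follow the expansins. The GH128 gene model 175190, of a family of beta-glucanases, was highest in early stipes (3047 ± 912.6 CPM) and fell to 1188 ± 216.3 CPM in late stipes (log2 -1.36, edgeR adjusted p = 0.0117). The CE4 gene model 296684, of the chitin deacetylase family, was higher in caps at all 3 stages, by 3.16 on the log2 scale at the late stage (397.6 ± 36.7 against 44.6 ± 13.5 CPM, edgeR adjusted p = 1.28e-06). Its late caps were not called against early caps (log2 -0.33, edgeR adjusted p = 0.377).

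Gene models of the cellulose-acting families AA9, GH12 and GH5_5 were low. They were also few, but the annotations at hand were partial and other families were not listed. Of 8 such gene models, edgeR called 0 in late caps against late stipes, with 4 at an unadjusted p under 0.05 and 0 by DESeq2, where 24.3% of all gene models were called. From early to late caps 1 rose and 2 fell, against 9.27% and 6.13% of all. The GH12 endoglucanase gene model 385634, the highest of them, was at 14.8 ± 0.25 CPM in late caps and 12.6 ± 1.42 CPM in late stipes (log2 0.24, edgeR adjusted p = 0.359). Its highest mean was in medium caps (23.2 ± 8.36 CPM), which were called above early caps (log2 1.03, edgeR adjusted p = 0.0117). The AA9 gene model 308609, of the lytic polysaccharide monooxygenases, rose from 2.06 ± 0.33 to 4.61 ± 0.67 CPM in caps (log2 1.16, edgeR adjusted p = 6.53e-04) and from 2.36 ± 0.25 to 6.97 ± 0.74 CPM in stipes (log2 1.56, edgeR adjusted p = 4.19e-05).

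The gene models whose levels were most like each member were found by Pearson's r of log2(CPM + 1) over the 18 libraries. For 323571 they were 399758 (r = 0.991), annotated with DNA binding, ATPase activity and meiotic recombination, the pepsin-type aspartic protease 191659 (r = 0.987) and 185727 (r = 0.986), paired with a *Coprinopsis* gene of the tyrosinase copper-binding domain. Gene model 399758 had mean levels of 6.76, 34.1 and 68.8 CPM in early, medium and late caps and 6.07, 10.5 and 12.2 CPM in the stipes. The protease 191659 was the most abundant of these, at 2682 CPM in late caps and 134.0 CPM in late stipes.

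For 243825 the most alike were 482919 (r = 0.950), which has no annotation in the tables at hand, the P-type proton ATPase 191443 (r = 0.946) and 237860 (r = 0.945), annotated as a carbonate dehydratase. The ATPase 191443 had 220.5 CPM in late caps and 95.0 CPM in late stipes. For 306030 they were 292821 (r = 0.972) and 582778 (r = 0.954), both without annotation in these tables, and the glycogen branching enzyme 292800 (r = 0.958) of family GH13. Gene model 292800 was at 805.7 CPM in late stipes and 457.9 CPM in late caps. None of the 3 nearest to 323571 was among its 3 nearest by Spearman's rho, and the nearest to 243825 and 306030 changed fully when the 6 group means were used, so the names depend on the measure.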

How the data were processed

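Stranded, paired-end mRNA libraries were sequenced from caps and stipes at 3 stages, with 3 libraries per group. Reads were trimmed and mapped by the authors with CLC Genomics Workbench to reference transcripts of *L. bicolor*, and a read could have several hits. For each gene model they deposited a raw count and an RPKM value. Whether the counts hold unique or total reads, and whether strand was used, is not given in the sources used here, so near-identical gene models may share reads. The deposited RPKM gave the same transcript length in all libraries within 1%. DESeq2 is named in the submitters' processing notes.

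The counts were tested in R 4.3.3 with edgeR 4.0.16 (filterByExpr, 16485 gene models kept, all 3 members among them; TMM; quasi-likelihood fit of all 18 libraries with a mean per group). In 9 comparisons and 3 interactions, calls needed a change of over 1 in log2 size together with a p under 0.05 after Benjamini-Hochberg adjustment over all gene models tested. The fit was tested on simulated data. Library size sets the precision of low counts, and SD covers the spread between the libraries of a group. SE was derived from the log2 fold change and the test statistic of the fit. That fit estimates the spread of a gene model over all 18 libraries, so SE does not measure the spread of the groups compared alone.

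The members and lists were chosen with earlier results of these data known. Named were the members, the other EXPN, RlpA-like and cerato-platanin gene models, the 3 gene models most like each member and the 2 highest of each wall list. The annotation tables were at hand in part. Alternatives were DESeq2 1.42.0, RLE scaling, TMM factors that ignore the top 50 gene models, 2 other filters, a replicate block, fits of the compared groups alone, glmTreat, a stricter adjusted p (0.01), no fold threshold, close libraries summed and each library left out. Sequences of the members were not used here.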

Additional observations from a re-analysis of the deposited data

Results flagged for a closer look

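By the interaction term of edgeR's fit, the change with age differed between caps and stipes for 3 gene models. The screen held the EXPN gene models and the 2 of a related fold, not the wall gene models or those most like a member. Caps were called above stipes for 9.84% of all gene models tested from early to late and for 5.50% from medium to late. For 323571, which was selected on its level in these libraries, the late against early change in caps exceeded that in stipes by 4.44 on the log2 scale. For the low expansin 313260 the excess was 1.89 from early to late and 1.83 from medium to late. For the cerato-platanin 172945 it was 3.91 from early to late and 2.72 from medium to late. In 323571 and 313260 the caps rose, while in 172945 the stipes fell and the caps were not called between early and late. The excess of 2.72 was not called when the close libraries were summed (log2 2.50, adjusted p = 0.0729), and without late stipe 1 the excesses of 172945 were 4.55 and 3.37.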

How the results depend on the processing

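The count of members called was the same under RLE scaling, TMM factors that ignore the top 50 gene models, both other filters and with close libraries summed. With no minimum fold change it was 2 in late caps against late stipes, in place of 1 (49.2% of all gene models called), and 3 in late against early stipes, in place of 2 (42.3%). Against the fold threshold by glmTreat it was 1 in medium caps against medium stipes in place of 2 (0.655% of all), 2 in late against early caps in place of 3 (4.18%, 306030 lost at an adjusted p of 0.141), 0 in late against medium caps in place of 3 (2.41%) and 0 in late against early stipes in place of 2 (5.54%). At an adjusted p under 0.01 it was 1 in late against early stipes (16.3%). With only the groups compared it was 0 in medium caps against medium stipes (323571, log2 2.69, adjusted p = 0.0572, and 306030, log2 -1.17, adjusted p = 0.103, with 2.84% of all called) and 2 in the late against early interaction. DESeq2 gave 2, 1 and 1 in the late against early, late against medium and medium against early interactions, in place of 1, 0 and 0. It called 15.9%, 8.92% and 0.637% of all gene models there. The cause of these changes was not tested.

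Leaving out each library in turn gave 1 to 2 members in late caps against late stipes, 1 to 2 in medium caps against medium stipes, 0 to 1 in early caps against early stipes, 1 to 3 in late against early stipes and 0 to 1 in medium against early stipes (1 without medium cap 3). It gave 1 to 2, 0 to 1 and 0 to 1 in the late against early, late against medium and medium against early interactions. It left 3, 3 and 1 in the 3 cap comparisons and 0 in late against medium stipes. Shares of all gene models called in either direction are given from the fit of all 18 libraries, with none left out. They were 24.3%, 11.5% and 5.16% in late, medium and early caps against stipes. For late against early, late against medium and medium against early they were 19.3%, 15.6% and 2.48% in stipes. The same steps had 15.4%, 15.0% and 2.03% in caps and 14.5%, 7.29% and 0.0182% in the interactions. Signs turned near 0. For 243825 in medium caps against medium stipes the value was 0.04 with close libraries summed and -0.38 to 0.06 with libraries left out. Its medium against early interaction ran from -0.18 to 0.31, and 323571 in early caps against early stipes from -0.09 to 0.02. The highest group of each member was the same by RLE scaling, by total counts, by RPKM and with each library left out.

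Nothing in the labels says that the replicate numbers pair the samples. Deviations from the group means correlated at -0.476 to 0.299 between libraries of the same number, within and across stages. With 3 libraries per group these correlations cannot decide whether samples were paired. With the replicate number as a block, 1 member was called in late caps against late stipes (24.1% of all gene models called). In late against early caps 3 were called (15.1% of all). No call of a member changed.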
